A study of Mus musculus with 7 samples.

Results

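Chromatin accessibility near genes of morphogen and growth factor signalling was examined in adipose tissue macrophages, the macrophages of fat, by ATAC-seq. This assay uses the Tn5 transposase to insert sequencing adapters into open chromatin, so the reads over a region measure how accessible it was. Regions were taken if the gene the authors assigned to them carried a name of the Wnt, Frizzled, BMP, FGF, TGF-beta, Smad, GDF, inhibin, activin receptor, Notch, Delta, Jagged, Patched, PDGF, IGF, LTBP, EGF or HGF families, with Igf1 left out. These were 70 of the 5898 deposited regions, assigned to 40 of 3814 genes. The choice used gene names and no measured value, but the authors had deposited each region because it differed between at least 2 of the diet groups in these same libraries. In the authors' values each deposited region had an absolute log2 fold change of at least 1 in a comparison, so changes of this size were part of the selection. The tests given here are therefore not independent of that selection, and accessible regions that the tables do not list were not analysed here.

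The libraries came from sorted macrophage nuclei of adult male C57Bl/6J mice and formed 3 groups. HFD-RD mice (2 libraries) spent 11 weeks on a high-fat diet (60% lipid), followed by 9 weeks of weight loss on the regular diet (10% lipid). HFD mice (3 libraries) had the same 11 weeks of high-fat diet and no change of diet. RD-RD mice (2 libraries) had the regular diet throughout, for 20 weeks. HFD mice were thus studied at another time on diet than both other groups, and diet and time cannot be told apart in comparisons with HFD. In each of the 7 libraries the source name and the title disagree on the diet; the groups here go by titles and diet labels. Nothing in the labels says whether libraries of a group came from separate mice, so p-values measure only the spread between these libraries. Reads within the deposited regions ran from 889422 to 2807495 per library, and the median of the 70 regions held 67 to 259.5 reads. None of the 11 macrophage marker genes had a deposited region, so the sorted cell type could not be checked on these tables.

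Morphogens and growth factors are secreted or membrane-bound ligands that bind receptors on the same or neighbouring cells. TGF-beta and BMP ligands bind paired serine/threonine kinase receptors that phosphorylate Smad proteins, Wnt ligands bind Frizzled receptors, and the FGF, EGF, PDGF and HGF families act through receptor tyrosine kinases. Patched holds the Hedgehog pathway in check, and Notch is activated by Delta and Jagged ligands on adjacent cells. In fat, macrophages are a source of growth factors for blood vessels and adipocyte progenitors, and TGF-beta signalling shapes the identity of tissue macrophages.

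Of the 70 regions, 5 lay over the start of their gene. For Egfr, Fgf5 and Fgf9, 250 bases of the RefSeq promoter entry (GRCm38.p6, plus strand) lay wholly inside the deposited region. Each of these regions was lower in both HFD-RD and HFD than in RD-RD. The Egfr and Fgf5 windows end directly before the gene start. The Fgf9 window lies downstream of the gene start, inside the gene, so it does not show the bases before that start. All 3 windows are shown because they lie within the regions over which these differences were measured. The whole regions were wider, at 1834 bp for Egfr, 911 bp for Fgf5 and 3190 bp for Fgf9. Their other bases were not searched. Capitals mark CpG dinucleotides, the sites of DNA methylation, which are dense in many promoters.
Egfr chr11:16751953-16752202: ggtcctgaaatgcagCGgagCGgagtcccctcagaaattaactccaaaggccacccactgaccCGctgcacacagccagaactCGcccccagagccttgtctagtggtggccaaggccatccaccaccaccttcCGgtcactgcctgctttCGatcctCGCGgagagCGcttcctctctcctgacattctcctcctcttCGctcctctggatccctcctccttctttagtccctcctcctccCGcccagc
Fgf5 chr5:98253934-98254183: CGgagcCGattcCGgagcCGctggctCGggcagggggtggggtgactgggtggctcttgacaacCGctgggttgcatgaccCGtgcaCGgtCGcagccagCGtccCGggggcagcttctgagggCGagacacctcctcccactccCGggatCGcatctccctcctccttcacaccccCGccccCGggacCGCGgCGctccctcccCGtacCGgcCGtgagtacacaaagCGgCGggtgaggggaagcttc
Fgf9 chr14:58072436-58072685: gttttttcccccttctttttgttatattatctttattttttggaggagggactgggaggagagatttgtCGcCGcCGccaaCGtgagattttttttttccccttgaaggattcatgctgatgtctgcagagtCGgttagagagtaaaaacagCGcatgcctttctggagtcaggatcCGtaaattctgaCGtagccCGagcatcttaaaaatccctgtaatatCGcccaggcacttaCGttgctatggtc
The Fgf5 window held 24 CpG and 70.8% G and C. The Egfr and Fgf9 windows held 11 CpG each, with 60.8% and 44.8% G and C. Over 32841 RefSeq promoters the median was 6 CpG and 52.4% G and C in a window of this length, and 88.0% of them held fewer CpG than the Fgf5 window. Searched on both strands, the GC box GGGCGG occurred once in the Egfr and once in the Fgf5 window and in 32.7% of all promoters. The AP-1 motif TGANTCA, the PU.1 motif GAGGAAGT and the E-box CACGTG did not occur in any of the 3 windows, against 6.75%, 2.44% and 6.02% of all promoters. None of these 4 motifs contains another, and a match describes letters only.

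Comparing HFD-RD with RD-RD asks what set macrophages of mice switched off the high-fat diet apart from those of mice kept on the regular diet. Against RD-RD, regions of FGF ligands and of the EGF receptor were less accessible in HFD-RD macrophages, while all regions of Frizzled 7, TGF-beta receptor 1, the IGF2 receptor and the PDGF family were more accessible. Of the 70 regions, 42 were higher in HFD-RD (64.8% of all deposited regions were), 27 were lower (32.4% of all), so 69 passed (97.2% of all), and 1 did not pass at an adjusted p of 0.05. The calls come from limma on log2(normalized count + 1), adjusted over all 5898 regions by the Benjamini-Hochberg method. A normalized count is the number of reads in a region divided by 1 size factor per library, as the authors deposited it. The median log2 change was 0.82 over the 70 regions and 1.03 over all deposited regions. Fewer macrophages with an open region and a smaller opening in each macrophage cannot be told apart in such bulk libraries.

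The HFD group gave similar counts against the same RD-RD libraries. In HFD against RD-RD, 41 regions were higher (59.2% of all deposited regions), 23 were lower (29% of all), so 64 passed (88.2% of all), and 6 did not pass, with a median log2 change of 0.87 against 0.75 over all deposited regions. Both comparisons use the RD-RD libraries, so a region with an unusual RD-RD value moves in both. Log2 changes given for HFD-RD or for HFD are against RD-RD unless another group is named. By role, receptor totals were equal in both comparisons and ligand totals were not. The 28 receptor regions were 20 higher, 7 lower and 1 not passed in each comparison with RD-RD. The 7 lower were not all the same regions, so equal totals do not mean equal calls. The Fgfr1 region inside the gene was among them only for HFD-RD, and the upstream Bmpr1b region only for HFD. Of the 28 ligand regions, 12 were higher and 16 lower in HFD-RD against RD-RD, while 11 were higher, 12 lower and 5 not passed in HFD against RD-RD. Of all 5898 deposited regions, 64.8% were higher, 32.4% lower and 167 not passed in HFD-RD against RD-RD. In HFD against RD-RD, 59.2% were higher, 29% lower and 698 not passed, so fewer calls in HFD were not particular to ligands. FGF ligands made up 12 of the 28 ligand regions and 3 of the 5 not passed. The difference between ligands and receptors was not tested.

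**Figure D1:**
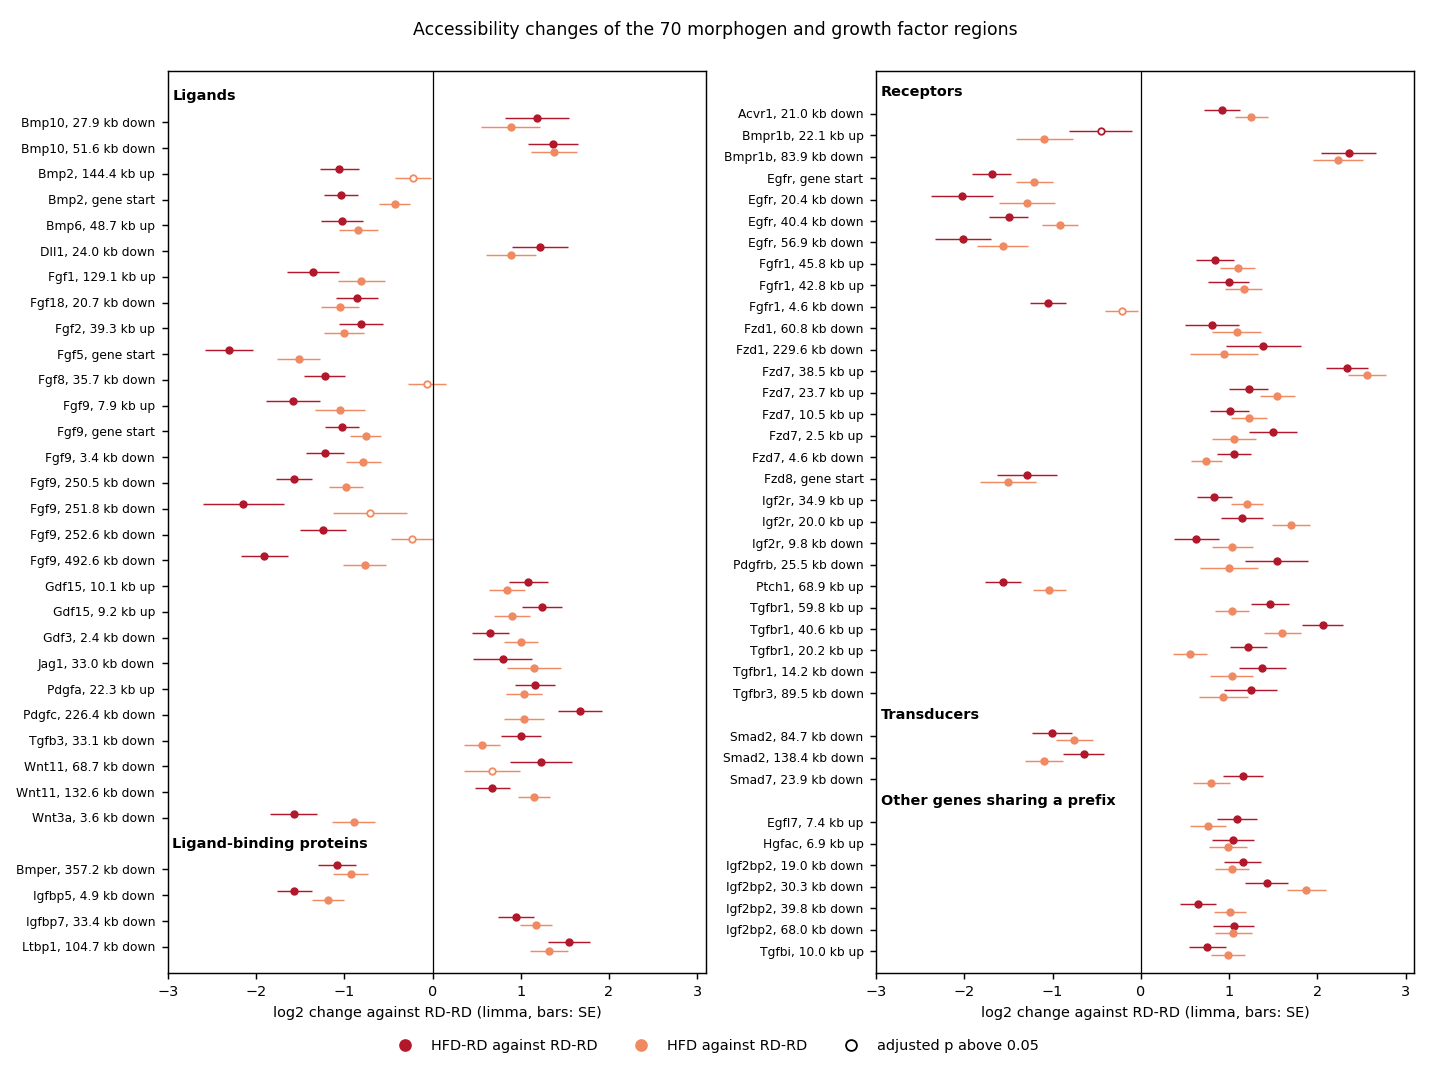
The log2 change of each of the 70 regions against RD-RD (horizontal axis, limma on normalized counts, bars: SE), with HFD-RD against RD-RD in dark red and HFD against RD-RD in orange, grouped by the role of the gene; open symbols did not pass at an adjusted p of 0.05. Labels give the gene and the distance of the region up- or downstream of the gene start. All 12 FGF ligand regions lie left of 0 in dark red, and all 5 Fzd7 and all 4 Tgfbr1 regions lie right of 0 in both colours.

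FGF ligands, which act on FGF receptors of neighbouring cells, were the ligand family with the most regions. In HFD-RD all 12 were lower than in RD-RD (32.4% of all deposited regions were), with a median log2 change of -1.30. In HFD against RD-RD, 9 of the 12 were lower (29% of all) and 3 did not pass, with a median of -0.80. Their summed normalized counts were 1147 and 1216 in HFD-RD, 1639, 1468 and 1655 in HFD, and 2729 and 2933 in RD-RD, so the 3 groups did not overlap in the sum. All 12 had been deposited because they differed between diet groups in these libraries, so the sum is no independent evidence. The 12 regions belong to 6 genes, and 7 of them to Fgf9, so they are not 12 independent cases. Those of Fgf5 and Fgf9 over gene starts are among them, and 90.9% of all deposited regions over a gene start were lower in HFD-RD against RD-RD.

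Fgf9, a secreted factor needed for lung and testis development, had 7 regions from 7.9 kb upstream to 492.6 kb downstream of its start. The region over the start (chr14:58070026-58073215) held 485 and 485 normalized counts in HFD-RD, 625, 526 and 604 in HFD, and 987 and 991 in RD-RD. Every RD-RD library was above every other library, and the HFD-RD libraries were the lowest. The log2 change there was -1.03 ± 0.20 (SE, adjusted p = 0.000597) for HFD-RD against RD-RD and -0.76 ± 0.18 (SE, adjusted p = 0.00244) for HFD against RD-RD. The region 3.4 kb inside the gene had 179 and 234 normalized counts in HFD-RD, 285, 258 and 286 in HFD, and 438 and 518 in RD-RD, in the same order of groups without overlap. It changed on the log2 scale by -1.22 ± 0.21 (SE, adjusted p = 0.000417) in HFD-RD and -0.78 ± 0.20 (SE, adjusted p = 0.00331) in HFD, each against RD-RD. The upstream region at 7.9 kb had 20.1 and 17.6 normalized counts in HFD-RD, 26.6, 18.9 and 41.3 in HFD, and 51.1 and 66.2 in RD-RD, where HFD-RD and HFD overlapped and both lay below RD-RD. It had log2 changes of -1.58 ± 0.31 (SE, adjusted p = 0.000659) for HFD-RD and -1.05 ± 0.28 (SE, adjusted p = 0.00502) for HFD, each against RD-RD.

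A group of 3 Fgf9 regions lay within 3 kb of each other in sequence, from 250.5 kb downstream on, where RefSeq places no other coding gene between them and Fgf9. The first (chr14:58321012-58321769) held 113 and 90.7 normalized counts in HFD-RD, 144, 149 and 167 in HFD, and 286 and 319.7 in RD-RD, with the 3 groups apart and HFD-RD lowest. Its log2 change against RD-RD was -1.57 ± 0.21 (SE, adjusted p = 0.000126) in HFD-RD and -0.98 ± 0.19 (SE, adjusted p = 0.000832) in HFD. The second, 251.8 kb downstream, held 52.9 and 14.8 normalized counts in HFD-RD, 95.7, 59.2 and 84.3 in HFD, and 106 and 156 in RD-RD with no overlap between groups and the HFD-RD libraries far apart. It was lower in HFD-RD against RD-RD, with a log2 change of -2.15 ± 0.46 (SE, adjusted p = 0.00102), a value that came to -1.26 without HFD-RD replicate 2, and did not pass in HFD against RD-RD with a log2 change of -0.71 ± 0.42 (SE, adjusted p = 0.128). The HFD value passed when either HFD-RD library was left out, with an adjusted p of 0.0248 in both cases. The third, 252.6 kb downstream, had 25.5 and 43.5 normalized counts in HFD-RD, 75.4, 59.2 and 71.4 in HFD, and 73.5 and 87.8 in RD-RD, so HFD reached into the range of RD-RD. There HFD-RD was lower than RD-RD with a log2 change of -1.24 ± 0.26 (SE, adjusted p = 0.000955), and HFD against RD-RD did not pass with a log2 change of -0.23 ± 0.24 (SE, adjusted p = 0.365). The most distant Fgf9 region, 492.6 kb downstream (chr14:58563098-58563436), held 29.2 and 30.5 normalized counts in HFD-RD, 62.3, 57.6 and 83.4 in HFD, and 89.7 and 147 in RD-RD. The groups did not overlap, and the log2 change was -1.91 ± 0.27 (SE, adjusted p = 0.000161) in HFD-RD and -0.77 ± 0.24 (SE, adjusted p = 0.0118) in HFD, each against RD-RD. Without RD-RD replicate 2 the HFD call at this region was lost (log2 change -0.42, adjusted p = 0.146).

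Fgf5, the factor that ends the growth phase of hair follicles, had 1 region, over its start (chr5:98253882-98254792). It held 32.8 and 56.5 normalized counts in HFD-RD, 76.8, 70.8 and 78.2 in HFD, and 258 and 183 in RD-RD, so all 3 groups were apart. The log2 change was -2.31 ± 0.27 (SE, adjusted p = 8.54e-05) for HFD-RD against RD-RD, the most negative of the 70 regions, and -1.52 ± 0.25 (SE, adjusted p = 0.00039) for HFD against RD-RD. Fgf8, an embryonic patterning factor, had 1 region 35.7 kb downstream with 14.6 and 22.2 normalized counts in HFD-RD, 36.6, 45.3 and 43.0 in HFD, and 43.6 and 43.2 in RD-RD, where HFD and RD-RD overlapped and HFD-RD lay below both. HFD-RD was lower than RD-RD with a log2 change of -1.22 ± 0.23 (SE, adjusted p = 0.00059), and HFD against RD-RD did not pass with a log2 change of -0.065 ± 0.21 (SE, adjusted p = 0.77).

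The remaining 3 FGF ligand regions were lower in both comparisons with RD-RD. Fgf18, a factor of cartilage and lung growth, had a region inside the gene with 117 and 126 normalized counts in HFD-RD, 90.8, 139.9 and 93.7 in HFD, and 220.5 and 220.3 in RD-RD, where RD-RD lay above all other libraries. The log2 change amounted to -0.86 ± 0.24 (SE, adjusted p = 0.00476) in HFD-RD and -1.05 ± 0.22 (SE, adjusted p = 0.00122) in HFD. The region assigned to Fgf1, the acidic FGF, lay 129.1 kb upstream inside the gene Arhgap26, with a log2 change of -1.35 ± 0.29 (SE, adjusted p = 0.00112) in HFD-RD and -0.81 ± 0.27 (SE, adjusted p = 0.0151) in HFD. The HFD call at Fgf1 was lost without HFD replicate 2 (log2 change -0.70, adjusted p = 0.0512) and without RD-RD replicate 2 (log2 change -0.58, adjusted p = 0.121). The region assigned to Fgf2, the basic FGF that promotes vessel growth, had the coding genes Bbs12 and Cetn4 between it and Fgf2. It had log2 changes of -0.81 ± 0.25 (SE, adjusted p = 0.00873) in HFD-RD and -1.01 ± 0.23 (SE, adjusted p = 0.002) in HFD, and the HFD-RD call was lost without HFD-RD replicate 2 (log2 change -0.60, adjusted p = 0.0757) and without RD-RD replicate 1 (log2 change -0.67, adjusted p = 0.0542).

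BMP ligands, which signal through Smad proteins, did not move in 1 direction. Of their 5 regions in HFD-RD against RD-RD, the 2 of Bmp2 and the 1 of Bmp6 were lower and the 2 of Bmp10 were higher. The region over the start of Bmp2 (chr2:133551787-133555146), a ligand that induces bone and cartilage, held 932 and 889 normalized counts in HFD-RD, 1354, 1344 and 1461 in HFD, and 1983 and 1757 in RD-RD, with the 3 groups apart and HFD-RD lowest. The log2 change was -1.04 ± 0.19 (SE, adjusted p = 0.000548) in HFD-RD and -0.43 ± 0.18 (SE, adjusted p = 0.0389) in HFD, each against RD-RD. The HFD call was lost without any 1 of the HFD libraries, with adjusted p-values of 0.113, 0.0826 and 0.0525, and without RD-RD replicate 1, with 0.160. It was also lost with the libraries scaled to equal totals, with 0.0521. The other Bmp2 region, 144.4 kb upstream, had 41.9 and 40.7 normalized counts in HFD-RD, 67.7, 65.0 and 92.8 in HFD, and 84.7 and 89.3 in RD-RD, so HFD overlapped RD-RD and HFD-RD lay below both. It had a log2 change of -1.05 ± 0.22 (SE, adjusted p = 0.000949) in HFD-RD and did not pass in HFD with a log2 change of -0.23 ± 0.20 (SE, adjusted p = 0.299). The region assigned to Bmp6, which in the liver drives the iron hormone hepcidin, lay nearer to the coding gene Gm47978. It had a log2 change of -1.03 ± 0.24 (SE, adjusted p = 0.00168) in HFD-RD and -0.84 ± 0.22 (SE, adjusted p = 0.00419) in HFD.

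Both regions assigned to Bmp10, a circulating ligand of a receptor on endothelial cells, lay nearer to Arhgap25 than to Bmp10. The one 51.6 kb downstream, inside Arhgap25, had 120.4 and 114 normalized counts in HFD-RD, 122, 103 and 131 in HFD, and 32.4 and 61.9 in RD-RD, with both RD-RD libraries below all others. Its log2 change was 1.37 ± 0.28 (SE, adjusted p = 0.000828) in HFD-RD, and 0.91 without RD-RD replicate 1, and 1.38 ± 0.26 (SE, adjusted p = 0.000685) in HFD. The one at 27.9 kb had 111 and 113 normalized counts in HFD-RD, 102, 72.4 and 102 in HFD, and 29.9 and 79.2 in RD-RD, and RD-RD replicate 2 lay within the HFD range. Here the HFD-RD value of 1.18 ± 0.37 (SE, adjusted p = 0.00857) lost its call without RD-RD replicate 1 (log2 change 0.50, adjusted p = 0.103) and came to 1.87 without RD-RD replicate 2. The HFD value of 0.89 ± 0.33 (SE, adjusted p = 0.0264) lost its call without HFD replicate 1, HFD replicate 3 or RD-RD replicate 1, with adjusted p-values of 0.0658, 0.0685 and 0.475 (log2 change 0.20 in the last), and came to 1.58 without RD-RD replicate 2.

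Other TGF-beta family ligands were higher against RD-RD. Gdf15, a stress-induced hormone that lowers food intake, had 2 regions 9.2 and 10.1 kb upstream, both nearer to the coding gene Pgpep1. The nearer of them to Gdf15 had 109 and 110.2 normalized counts in HFD-RD, 86.3, 97.1 and 78.2 in HFD, and 38.6 and 54.7 in RD-RD, and no RD-RD library reached another group. It changed on the log2 scale by 1.24 ± 0.22 (SE, adjusted p = 0.000471) in HFD-RD and 0.90 ± 0.21 (SE, adjusted p = 0.00197) in HFD. Gdf3, a ligand that adipose tissue macrophages are known to make, had a region inside the gene with a log2 change of 0.66 ± 0.21 (SE, adjusted p = 0.00998) in HFD-RD and 1.00 ± 0.19 (SE, adjusted p = 0.000767) in HFD. That HFD-RD call was lost without HFD-RD replicate 1 (log2 change 0.47, adjusted p = 0.076). The region assigned to Tgfb3, a TGF-beta isoform, lay inside Ttll5 and had a log2 change of 1.00 ± 0.22 (SE, adjusted p = 0.00124) in HFD-RD. In HFD the Tgfb3 region had a log2 change of 0.56 ± 0.20 (SE, adjusted p = 0.0215), a call lost without HFD replicate 1, HFD replicate 3 or either RD-RD library, with adjusted p-values of 0.0844, 0.0599, 0.0705 and 0.0559.

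Among the Wnt ligands, Wnt3a, which acts through beta-catenin, was lower and Wnt11, which mostly acts without it, was higher. The Wnt3a region inside the gene (chr11:59287138-59287652) held 32.8 and 60.2 normalized counts in HFD-RD, 74.5, 70.8 and 70.5 in HFD, and 122 and 148 in RD-RD, with the groups apart and RD-RD highest. The log2 change amounted to -1.58 ± 0.27 (SE, adjusted p = 0.000355) in HFD-RD and -0.89 ± 0.24 (SE, adjusted p = 0.00549) in HFD. Both Wnt11 regions lay inside Uvrag, a gene of autophagy. The one at 132.6 kb had 310.1 and 309 normalized counts in HFD-RD, 478, 430.3 and 386 in HFD, and 189 and 197 in RD-RD, with HFD highest and RD-RD lowest. On the log2 scale it changed by 0.68 ± 0.20 (SE, adjusted p = 0.00651) in HFD-RD and 1.15 ± 0.18 (SE, adjusted p = 0.000352) in HFD. The one at 68.7 kb had a log2 change of 1.23 ± 0.35 (SE, adjusted p = 0.0051) in HFD-RD, lost without RD-RD replicate 1 (log2 change 0.69, adjusted p = 0.0636). In HFD it did not pass with a log2 change of 0.67 ± 0.32 (SE, adjusted p = 0.0645), and passed without HFD replicate 2 or RD-RD replicate 2 with adjusted p-values of 0.0267 and 0.00521.

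Notch and PDGF ligand regions were all higher against RD-RD. Dll1, a Notch ligand on the signalling cell, had 197 and 126 normalized counts in HFD-RD, 125, 107 and 146 in HFD, and 48.6 and 92.2 in RD-RD, with both RD-RD libraries below the rest. This was a log2 change of 1.22 ± 0.32 (SE, adjusted p = 0.00304) in HFD-RD and 0.89 ± 0.29 (SE, adjusted p = 0.0132) in HFD. Without RD-RD replicate 1 the HFD-RD value came to 0.77 and the HFD call was lost (log2 change 0.43, adjusted p = 0.188). Without RD-RD replicate 2 the HFD value of Dll1 came to 1.34. Jag1, another Notch ligand, had 60.2 and 47.2 normalized counts in HFD-RD, 68.2, 51.8 and 90.3 in HFD, and 21.2 and 43.2 in RD-RD, with RD-RD replicate 2 close to the lowest HFD-RD library. The log2 change of Jag1 was 0.79 ± 0.34 (SE, adjusted p = 0.0381) in HFD-RD and 1.15 ± 0.31 (SE, adjusted p = 0.00485) in HFD. The HFD-RD call was lost without either HFD-RD library or RD-RD replicate 1, with adjusted p-values of 0.181, 0.0524 and 0.386, and the HFD call without RD-RD replicate 1 with 0.0741. Without RD-RD replicate 1 the log2 change of Jag1 came to 0.30 in HFD-RD and 0.65 in HFD, and without RD-RD replicate 2 it came to 1.29 in HFD-RD. Scaling the libraries to equal totals also ended the HFD-RD call of Jag1 (adjusted p = 0.0732). Pdgfc, a platelet-derived growth factor chain that activates the receptor of fibroblast progenitors, had 1 region 226.4 kb downstream (chr3:81262814-81263187). It held 124 and 118 normalized counts in HFD-RD, 85.8, 61.7 and 87.7 in HFD, and 31.1 and 44.6 in RD-RD, and all 3 groups were apart with HFD-RD highest. The log2 changes were 1.67 ± 0.25 (SE, adjusted p = 0.000199) in HFD-RD and 1.03 ± 0.23 (SE, adjusted p = 0.00158) in HFD. Pdgfa, the A chain of the same family, had a region inside Prkar1b with 94.8 and 96.3 normalized counts in HFD-RD, 82.6, 74.9 and 109 in HFD, and 39.9 and 44.6 in RD-RD, both RD-RD libraries being lowest. The region had log2 changes of 1.16 ± 0.22 (SE, adjusted p = 0.000627) in HFD-RD and 1.04 ± 0.21 (SE, adjusted p = 0.000922) in HFD.

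Among the receptors, Fzd7, a Frizzled receptor of Wnt ligands, had 5 regions from 38.5 kb upstream to 4.6 kb downstream of its start. All 5 were higher against RD-RD in both groups. Their summed normalized counts were 761 and 722 in HFD-RD, 843, 669.7 and 876 in HFD, and 298 and 285 in RD-RD, so both RD-RD libraries lay below all others. The strongest was the most distant (chr1:59443906-59444781), with 149.6 and 124 normalized counts in HFD-RD, 163, 129 and 190.0 in HFD, and 23.7 and 28.8 in RD-RD. Its log2 change was 2.34 ± 0.24 (SE, adjusted p = 4.51e-05) in HFD-RD and 2.56 ± 0.22 (SE, adjusted p = 9.34e-05) in HFD. At 23.7 kb upstream the counts were 213 and 244 in HFD-RD, 295, 239 and 332 in HFD, and 99.6 and 95.0 in RD-RD, again with RD-RD below all others. The log2 changes there were 1.22 ± 0.22 (SE, adjusted p = 0.00044) in HFD-RD and 1.54 ± 0.20 (SE, adjusted p = 0.000175) in HFD. The other 3 Fzd7 regions lay nearer to the start. At 10.5 kb upstream there were 168 and 122 normalized counts in HFD-RD, 189.7, 151 and 161 in HFD, and 69.8 and 72.0 in RD-RD. At 2.5 kb upstream there were 104 and 107 in HFD-RD, 87.6, 57.6 and 93.7 in HFD, and 44.8 and 30.2 in RD-RD. At 4.6 kb downstream there were 126 and 124 in HFD-RD, 107, 93.0 and 99.7 in HFD, and 59.8 and 59.0 in RD-RD. RD-RD was below all other libraries at each of these 3, and at the last 2 of them HFD-RD lay above HFD. They had log2 changes between 1.00 and 1.49 in HFD-RD and between 0.74 and 1.22 in HFD.

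The other Frizzled regions went both ways. At Fzd8, the region the authors annotated as overlapping the gene start held 58.4 and 26.8 normalized counts in HFD-RD, 40.2, 24.7 and 39.5 in HFD, and 89.7 and 108 in RD-RD, with RD-RD above all others and the HFD-RD libraries far apart. In the RefSeq gene table it lies 0.407 kb from the gene body. The log2 change was -1.29 ± 0.34 (SE, adjusted p = 0.00368) in HFD-RD, coming to -0.74 without HFD-RD replicate 2, and -1.51 ± 0.31 (SE, adjusted p = 0.00124) in HFD. Fzd1 had 2 regions downstream, at 60.8 and 229.6 kb, with log2 changes of 0.81 ± 0.31 (SE, adjusted p = 0.0246) and 1.39 ± 0.43 (SE, adjusted p = 0.00809) in HFD-RD. In HFD they had log2 changes of 1.08 ± 0.28 (SE, adjusted p = 0.00413) and 0.94 ± 0.39 (SE, adjusted p = 0.0383). The nearer region held 122 and 80.5 normalized counts in HFD-RD, 112, 123 and 126 in HFD, and 39.9 and 79.2 in RD-RD, and the farther 78.4 and 50.0 in HFD-RD, 61.9, 54.3 and 28.4 in HFD, and 14.9 and 36.0 in RD-RD. RD-RD replicate 1 was the lowest library at both. Without it none of the 4 Fzd1 calls held, with adjusted p-values of 0.284 and 0.103 in HFD-RD and 0.0607 and 0.446 in HFD. Their log2 changes then came to 0.32 and 0.78 in HFD-RD and 0.60 and 0.34 in HFD. Without RD-RD replicate 2, the region at 60.8 kb came to 1.29 in HFD-RD and the region at 229.6 kb to 1.55 in HFD. The HFD-RD calls were also lost without HFD-RD replicate 1, with 0.194 (log2 change 0.51) and 0.0785 (at 60.8 kb also with equal totals, with 0.0501), and the HFD call at 229.6 kb without HFD replicate 1 or 2, with 0.114 and 0.104.

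Tgfbr1, the kinase that phosphorylates Smad proteins when TGF-beta binds, had 4 regions, all higher in both groups than in RD-RD. Summed, they had 1149 and 1013 normalized counts in HFD-RD, 757, 709 and 807 in HFD, and 385 and 428 in RD-RD, with the 3 groups apart. The region at 40.6 kb upstream (chr4:47312667-47313180) held 83.9 and 101 normalized counts in HFD-RD, 66.4, 65.0 and 68.8 in HFD, and 26.2 and 17.3 in RD-RD. Both HFD-RD libraries were highest there and both RD-RD libraries lowest, with a log2 change of 2.06 ± 0.23 (SE, adjusted p = 6.92e-05) in HFD-RD and 1.60 ± 0.21 (SE, adjusted p = 0.000186) in HFD. This region and the one at 59.8 kb lie inside the collagen gene Col15a1. At 59.8 kb the counts were 499.7 and 496 in HFD-RD, 383, 318 and 414 in HFD, and 166 and 196 in RD-RD, in the same order. The log2 changes were 1.46 ± 0.21 (SE, adjusted p = 0.000182) in HFD-RD and 1.03 ± 0.19 (SE, adjusted p = 0.000711) in HFD. At 20.2 kb the counts were 467 and 348 in HFD-RD, 257, 247 and 260.5 in HFD, and 164 and 181 in RD-RD, with the groups apart once more. On the log2 scale HFD-RD was higher than RD-RD by 1.22 ± 0.21 (SE, adjusted p = 0.000386) and HFD by 0.56 ± 0.19 (SE, adjusted p = 0.018); the HFD call was lost without HFD replicate 1 (adjusted p = 0.0549) and without RD-RD replicate 1 (adjusted p = 0.0834). The region inside the gene, at 14.2 kb, held 98.5 and 67.6 normalized counts in HFD-RD, 50.6, 79.8 and 64.5 in HFD, and 28.6 and 33.1 in RD-RD, where HFD-RD and HFD overlapped and RD-RD lay below. In log2 terms it changed by 1.38 ± 0.26 (SE, adjusted p = 0.000585) in HFD-RD and 1.03 ± 0.24 (SE, adjusted p = 0.00227) in HFD.

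BMP and activin receptors held the largest increase of the 70 regions in HFD-RD. Bmpr1b, a type I BMP receptor, had a region inside the gene (chr3:142085562-142086417) with 177 and 106 normalized counts in HFD-RD, 125, 93.0 and 172 in HFD, and 27.4 and 24.5 in RD-RD. Both RD-RD libraries were below all others, and the log2 change was 2.36 ± 0.31 (SE, adjusted p = 0.000121) in HFD-RD and 2.24 ± 0.28 (SE, adjusted p = 0.000163) in HFD. The second Bmpr1b region, 22.1 kb upstream, differed in direction, with 69.3 and 27.8 normalized counts in HFD-RD, 30.3, 32.1 and 22.4 in HFD, and 67.3 and 54.7 in RD-RD. HFD-RD replicate 1 was above both RD-RD libraries there and HFD-RD replicate 2 within the HFD range. HFD was lower than RD-RD with a log2 change of -1.09 ± 0.32 (SE, adjusted p = 0.00844), a call lost without RD-RD replicate 1 (log2 change -0.95, adjusted p = 0.0603). HFD-RD against RD-RD did not pass with a log2 change of -0.46 ± 0.36 (SE, adjusted p = 0.229); without HFD-RD replicate 1 it passed with a log2 change of -1.10 and an adjusted p of 0.00623. Acvr1, a type I receptor of BMPs and activins, had a region inside the gene with a log2 change of 0.92 ± 0.20 (SE, adjusted p = 0.00115) in HFD-RD and 1.25 ± 0.18 (SE, adjusted p = 0.000262) in HFD. Tgfbr3, the co-receptor betaglycan, had one with a log2 change of 1.24 ± 0.30 (SE, adjusted p = 0.00212) in HFD-RD and 0.94 ± 0.28 (SE, adjusted p = 0.00809) in HFD, and the HFD call was lost without RD-RD replicate 2 (log2 change 0.70, adjusted p = 0.0741).

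Egfr, the receptor of EGF and related ligands, had 4 regions, all lower in both groups than in RD-RD. In sum they had 479.7 and 696 normalized counts in HFD-RD, 802, 758 and 934 in HFD, and 2134 and 1769.8 in RD-RD, so the 3 groups were apart. Over the start, whose upstream sequence is printed above (chr11:16751713-16753546), there were 387 and 542 normalized counts in HFD-RD, 646, 588 and 694 in HFD, and 1587 and 1381 in RD-RD. The log2 change there was -1.69 ± 0.22 (SE, adjusted p = 0.000127) in HFD-RD and -1.21 ± 0.20 (SE, adjusted p = 0.000466) in HFD. The 3 regions inside the gene, at 20.4, 40.4 and 56.9 kb, had log2 changes of -2.03, -1.50 and -2.01 in HFD-RD. In HFD they had -1.29, -0.92 and -1.57. At 20.4 kb there were 36.5 and 64.8 normalized counts in HFD-RD, 63.7, 68.3 and 126 in HFD, and 230.4 and 177 in RD-RD, and at 40.4 kb 25.5 and 34.3 in HFD-RD, 41.5, 42.0 and 51.6 in HFD, and 85.9 and 85.0 in RD-RD. RD-RD was highest at both, and HFD-RD and HFD overlapped at the first of them. The one at 56.9 kb (chr11:16809097-16809858) had 31.0 and 55.5 normalized counts in HFD-RD, 50.6, 59.2 and 61.9 in HFD, and 230.4 and 127 in RD-RD, with RD-RD replicate 1 far above RD-RD replicate 2 and both above all others. It had log2 changes of -2.01 ± 0.32 (SE, adjusted p = 0.000272) in HFD-RD and -1.57 ± 0.29 (SE, adjusted p = 0.000697) in HFD.

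Fgfr1, a receptor tyrosine kinase of FGF ligands, had regions in both directions. The 2 upstream regions, at 45.8 and 42.8 kb, lay nearer to the coding gene Gm39147 than to Fgfr1. Both were higher in HFD-RD and in HFD than in RD-RD. The first of these had 689 and 871 normalized counts in HFD-RD, 928, 889 and 969 in HFD, and 381 and 492 in RD-RD, with RD-RD below all others. On the log2 scale it changed by 0.84 ± 0.22 (SE, adjusted p = 0.00312) in HFD-RD and 1.10 ± 0.20 (SE, adjusted p = 0.000608) in HFD. The second had 140.4 and 191 normalized counts in HFD-RD, 182, 169 and 204 in HFD, and 72.2 and 92.2 in RD-RD, with HFD-RD and HFD overlapping above RD-RD. Its log2 changes were 1.00 ± 0.23 (SE, adjusted p = 0.00155) in HFD-RD and 1.17 ± 0.21 (SE, adjusted p = 0.000586) in HFD. The third region, 4.6 kb inside the gene (chr8:25518296-25520789), had 452 and 583 normalized counts in HFD-RD, 887, 927 and 939.7 in HFD, and 1079 and 1053 in RD-RD, and HFD-RD lay below all other libraries. It was lower in HFD-RD against RD-RD with a log2 change of -1.05 ± 0.20 (SE, adjusted p = 0.000639) and did not pass in HFD against RD-RD with a log2 change of -0.22 ± 0.19 (SE, adjusted p = 0.281).

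Igf2r, which carries lysosomal enzymes and clears IGF2 from the cell surface, had 3 regions, all higher against RD-RD. At 20.0 kb upstream (chr17:12789645-12791069) there were 405 and 483 normalized counts in HFD-RD, 629.5, 555 and 781 in HFD, and 173 and 229 in RD-RD, with the groups apart and HFD highest. The log2 change there was 1.15 ± 0.24 (SE, adjusted p = 0.000867) in HFD-RD and 1.70 ± 0.22 (SE, adjusted p = 0.000172) in HFD. The region 34.9 kb upstream lay nearer to the coding gene Mas1 than to Igf2r. It held 201 and 168 normalized counts in HFD-RD, 230.3, 247 and 236 in HFD, and 108 and 97.9 in RD-RD, in the same order of groups. This was a log2 change of 0.83 ± 0.20 (SE, adjusted p = 0.00196) in HFD-RD and 1.20 ± 0.18 (SE, adjusted p = 0.000291) in HFD. The region 9.8 kb inside the gene held 115 and 94.4 in HFD-RD, 167, 102 and 155 in HFD, and 63.5 and 70.6 in RD-RD, with HFD-RD and HFD overlapping above RD-RD. The region had log2 changes of 0.63 ± 0.26 (SE, adjusted p = 0.0326) in HFD-RD and 1.03 ± 0.23 (SE, adjusted p = 0.00193) in HFD, and its HFD-RD call was lost without HFD-RD replicate 1 (adjusted p = 0.157), without either RD-RD library (adjusted p = 0.113 and 0.0511), and with the libraries scaled to equal totals (adjusted p = 0.0978). Pdgfrb, the PDGF receptor of pericytes and fibroblasts, had a region inside the gene with 69.3 and 52.8 normalized counts in HFD-RD, 51.5, 44.4 and 30.9 in HFD, and 31.1 and 13.0 in RD-RD; RD-RD replicate 1 was within the HFD range. In log2 terms it changed by 1.54 ± 0.36 (SE, adjusted p = 0.00177) in HFD-RD and 1.00 ± 0.33 (SE, adjusted p = 0.0144) in HFD. Without RD-RD replicate 2 the HFD-RD value came to 0.94 and the HFD call was lost (log2 change 0.40, adjusted p = 0.228), and without RD-RD replicate 1 the HFD value came to 1.60. Ptch1, the Hedgehog receptor that inhibits Smoothened, had 1 region 68.9 kb upstream (chr13:63642516-63643657) with 106 and 123 normalized counts in HFD-RD, 164, 151 and 179.7 in HFD, and 357 and 321 in RD-RD. The groups were apart, with HFD-RD lowest, and the log2 changes were -1.56 ± 0.20 (SE, adjusted p = 0.000119) in HFD-RD and -1.04 ± 0.19 (SE, adjusted p = 0.000578) in HFD.

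**Figure D2:**
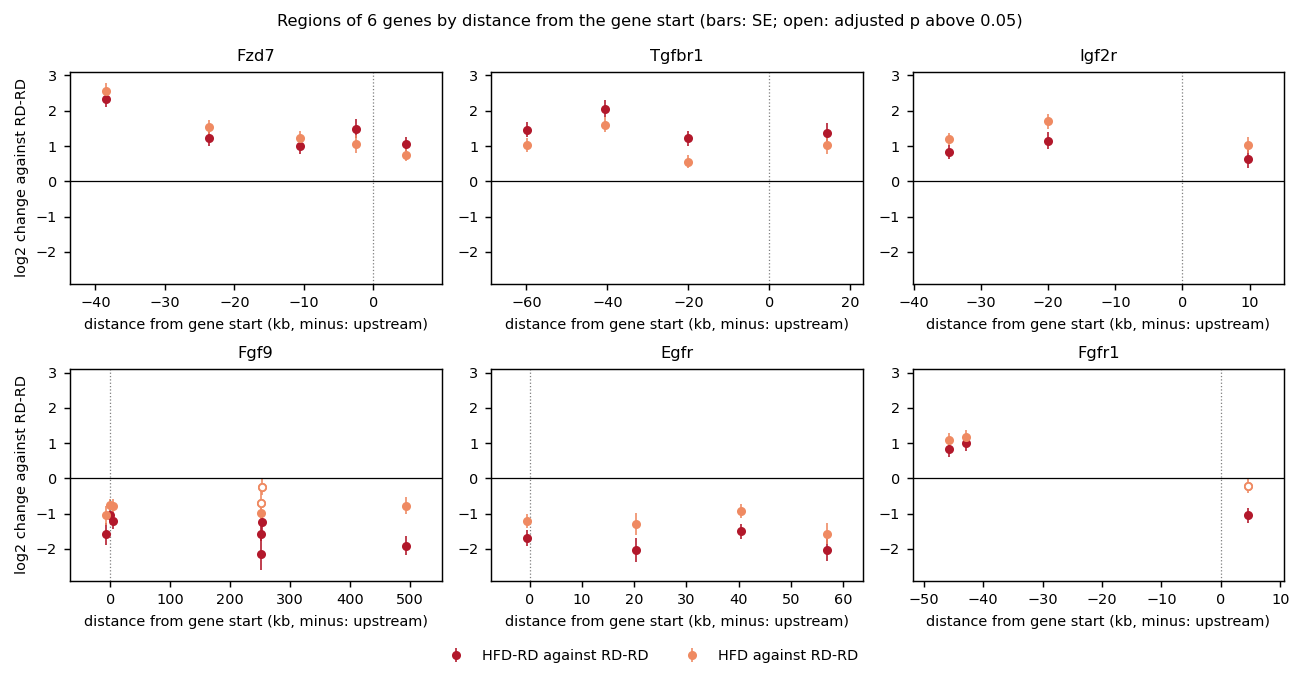
The log2 change against RD-RD (vertical axis, bars: SE) of each region of 6 receptor and ligand genes by its distance from the gene start in kb (horizontal axis, minus: upstream; dotted line: gene start), with HFD-RD against RD-RD in dark red and HFD against RD-RD in orange; open symbols did not pass. Regions of Fzd7, Tgfbr1 and Igf2r lie above 0 on both sides of the start, those of Fgf9 and Egfr below 0, and Fgfr1 has 2 upstream regions above 0 and 1 inside the gene below it.

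The transducers and binding proteins were few. Smad7, which blocks TGF-beta receptors, had a region inside the gene with 394 and 309 normalized counts in HFD-RD, 222, 294 and 309 in HFD, and 151 and 161 in RD-RD, both RD-RD libraries being lowest. It changed on the log2 scale by 1.16 ± 0.23 (SE, adjusted p = 0.000698) in HFD-RD and 0.80 ± 0.21 (SE, adjusted p = 0.00441) in HFD. The 2 regions of Smad2, which carries the TGF-beta signal to the nucleus, were lower. At 84.7 kb downstream Smad2 had a log2 change of -1.01 ± 0.23 (SE, adjusted p = 0.00133) in HFD-RD and -0.75 ± 0.21 (SE, adjusted p = 0.00561) in HFD. At 138.4 kb it had 108 and 110.2 normalized counts in HFD-RD, 102, 74.9 and 65.3 in HFD, and 163 and 180.0 in RD-RD, with RD-RD highest, and log2 changes of -0.65 ± 0.24 (SE, adjusted p = 0.0192) in HFD-RD and -1.10 ± 0.21 (SE, adjusted p = 0.000866) in HFD. The HFD-RD call there was lost without either HFD-RD library (adjusted p = 0.0629 and 0.0524) and without RD-RD replicate 2 (adjusted p = 0.0724). Igfbp5, which binds IGFs outside the cell, had a region inside the gene (chr1:72870003-72870731) with 65.7 and 62.0 normalized counts in HFD-RD, 83.5, 82.3 and 84.3 in HFD, and 211 and 173 in RD-RD, the 3 groups being apart and HFD-RD lowest. The log2 change amounted to -1.56 ± 0.20 (SE, adjusted p = 0.00011) in HFD-RD and -1.18 ± 0.18 (SE, adjusted p = 0.000301) in HFD. Bmper, a secreted BMP-binding protein, had a region 357.2 kb downstream with 115 and 128 normalized counts in HFD-RD, 141, 152 and 115 in HFD, and 239 and 279 in RD-RD, RD-RD being highest. It was lower, with log2 changes of -1.09 ± 0.22 (SE, adjusted p = 0.00069) in HFD-RD and -0.93 ± 0.20 (SE, adjusted p = 0.00133) in HFD. Igfbp7, a secreted protein related to the IGF-binding proteins, was higher, with a log2 change of 0.94 ± 0.20 (SE, adjusted p = 0.001) in HFD-RD and 1.17 ± 0.18 (SE, adjusted p = 0.000335) in HFD. Ltbp1, which holds latent TGF-beta in the matrix, had a region inside the gene with 128 and 122 normalized counts in HFD-RD, 85.4, 127 and 112 in HFD, and 37.4 and 47.5 in RD-RD, both RD-RD libraries being lowest. Its log2 change was 1.54 ± 0.24 (SE, adjusted p = 0.000228) in HFD-RD and 1.32 ± 0.22 (SE, adjusted p = 0.000396) in HFD.

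The 7 regions of genes that share a family prefix but have other functions were all higher in both comparisons with RD-RD. Of all deposited regions, 64.8% were higher in HFD-RD and 59.2% in HFD. Igf2bp2, an mRNA-binding protein, had 4 of the 7, all inside the gene, so they are not 7 independent cases. The strongest (chr16:22132966-22134135) had 188 and 269 normalized counts in HFD-RD, 325, 260.0 and 341 in HFD, and 74.7 and 92.2 in RD-RD, with RD-RD below all others. It changed on the log2 scale by 1.43 ± 0.24 (SE, adjusted p = 0.000357) in HFD-RD and 1.87 ± 0.22 (SE, adjusted p = 0.000129) in HFD, and the other 3, at 19.0, 39.8 and 68.0 kb, had 0.65 to 1.16 in HFD-RD and 1.01 to 1.05 in HFD. At 19.0 kb Igf2bp2 had 269.9 and 234 normalized counts in HFD-RD, 225, 238 and 231 in HFD, and 98.4 and 128 in RD-RD. At 39.8 kb it had 529 and 515 in HFD-RD, 685, 597 and 743 in HFD, and 345 and 321 in RD-RD. At 68.0 kb it had 334 and 318 in HFD-RD, 327, 269.9 and 388 in HFD, and 139.5 and 176 in RD-RD. RD-RD was the lowest group at these 3, and the HFD-RD call at 39.8 kb was lost with the libraries scaled to equal totals (adjusted p = 0.0509). Egfl7, a protein secreted by endothelial cells, had a region with 525 and 411 normalized counts in HFD-RD, 346, 407 and 363 in HFD, and 192 and 248 in RD-RD and the groups apart, HFD-RD being highest. It had log2 changes of 1.09 ± 0.22 (SE, adjusted p = 0.000815) in HFD-RD and 0.76 ± 0.20 (SE, adjusted p = 0.00473) in HFD. The region assigned to Hgfac, the protease that activates HGF, lay inside Rgs12, with 489 and 433 normalized counts in HFD-RD, 405, 379 and 569 in HFD, and 213 and 233 in RD-RD and RD-RD lowest. On the log2 scale it changed by 1.04 ± 0.23 (SE, adjusted p = 0.00136) in HFD-RD and 0.99 ± 0.21 (SE, adjusted p = 0.00151) in HFD. Tgfbi, a matrix protein induced by TGF-beta, had a log2 change of 0.75 ± 0.21 (SE, adjusted p = 0.005) in HFD-RD and 0.99 ± 0.19 (SE, adjusted p = 0.000894) in HFD. Leaving these 7 out, 35 of 63 regions were higher (64.8% of all deposited regions were), 27 lower (32.4% of all) and 1 not passed in HFD-RD against RD-RD.

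Setting HFD-RD directly against HFD asks what differed between macrophages after the diet was changed and macrophages on the high-fat diet. In HFD-RD, 6 of the 12 FGF ligand regions, both Bmp2 regions and 1 of 3 Fgfr1 regions were less accessible than in HFD, and 1 of 4 Tgfbr1 regions was more accessible. Of the 70 regions, 9 were lower in HFD-RD (12.8% of all deposited regions), 1 was higher (10.2% of all), so 10 passed (23.1% of all), and 60 did not pass. The median log2 change was -0.22 over the 70 regions and -0.054 over all deposited regions. The other 6 FGF ligand regions did not pass, with log2 changes from -0.55 at Fgf1 to 0.20 at Fgf2.

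The 9 lower regions belonged to Fgf9 (4), Bmp2 (2), Fgf5, Fgf8 and Fgfr1, and their values per library are given above. The lowest adjusted p was that of the Fgf8 region, with a log2 change of -1.16 ± 0.21 (SE, adjusted p = 0.0079) in HFD-RD against HFD, and the largest change was that of the Fgf9 region at 251.8 kb, with a log2 change of -1.44 ± 0.42 (SE, adjusted p = 0.0324). The other Fgf9 regions called were those at 250.5 kb with a log2 change of -0.59 ± 0.19 (SE, adjusted p = 0.0461), at 252.6 kb with a log2 change of -1.01 ± 0.24 (SE, adjusted p = 0.0154) and at 492.6 kb with a log2 change of -1.14 ± 0.24 (SE, adjusted p = 0.0116). Fgf5 had a log2 change of -0.79 ± 0.25 (SE, adjusted p = 0.0423) over its start. Bmp2 had a log2 change of -0.61 ± 0.18 (SE, adjusted p = 0.0328) over its start and -0.83 ± 0.20 (SE, adjusted p = 0.0176) at 144.4 kb upstream. The Fgfr1 region inside the gene had a log2 change of -0.84 ± 0.19 (SE, adjusted p = 0.0128). At Fgf8, Fgfr1, the distant Bmp2 region and the Fgf9 regions at 251.8 and 252.6 kb, HFD had not passed against RD-RD. The only region called higher was that of Tgfbr1 at 20.2 kb upstream, with a log2 change of 0.66 ± 0.19 (SE, adjusted p = 0.0324). Patched, IGF, PDGF, EGF, Wnt, Frizzled and Notch regions did not pass in HFD-RD against HFD with the deposited scaling and all libraries in the fit. With equal totals per library, 3 of the 4 Egfr regions, 2 of the 3 Igf2r regions, 2 further Fgf9 regions and 1 region each of Acvr1, Gdf3, Igf2bp2, Igfbp5, Ptch1, Wnt3a and Wnt11 were also lower in HFD-RD than in HFD. The Pdgfc region had 0.64 ± 0.23 (SE, adjusted p = 0.0609) and passed as higher when either RD-RD library was left out (adjusted p = 0.0421 in both cases).

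Each of these 10 calls was lost in at least 1 of the fits that left out a library. Leaving out HFD-RD replicate 1 ended 9 of the 10, all but the Fgf9 region at 251.8 kb, with adjusted p-values from 0.0654 at Fgf8 to 0.340 at Fgf5. It moved the log2 change of Fgf5 to -0.41, against -0.79 with all libraries, and that of the Fgf9 region at 252.6 kb to -0.64, against -1.01. Leaving out HFD-RD replicate 2 ended the calls of both Bmp2 regions (adjusted p = 0.0960 and 0.0597) and of the Fgf9 regions at 250.5 and 251.8 kb (adjusted p = 0.196 and 0.242). The Fgf9 region at 251.8 kb came to a log2 change of -2.32 without HFD-RD replicate 1 and -0.56 without HFD-RD replicate 2. HFD replicate 1 was needed for 6 calls (Bmp2 start, Fgf5, Tgfbr1, and Fgf9 at 250.5, 251.8 and 252.6 kb, adjusted p = 0.0611 to 0.112). HFD replicate 2 was needed for 4 (Bmp2 start, Fgf5, Tgfbr1 and Fgf9 at 250.5 kb, adjusted p = 0.0619 to 0.0815), and HFD replicate 3 for 6 (both Bmp2 regions, Fgf5, Tgfbr1, and Fgf9 at 250.5 and 251.8 kb, adjusted p = 0.0549 to 0.122). Calls over all deposited regions also fell without either HFD-RD library or any HFD library, so the losses were not particular to these regions. Without HFD replicate 1, 2 and 3, 3.78%, 6.78% and 5.51% of all regions were higher and 4.59%, 8.53% and 6.66% lower. With the libraries scaled to equal totals in place of the authors' size factors, the median of all regions shifted by -0.21 on the log2 scale, 23 of the 70 regions were lower and 0 higher, and over all regions the calls were 361 higher and 1588 lower, against 603 higher and 757 lower with the deposited scaling. The Tgfbr1 region did not pass with equal totals (adjusted p = 0.0752).

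**Figure D3:**
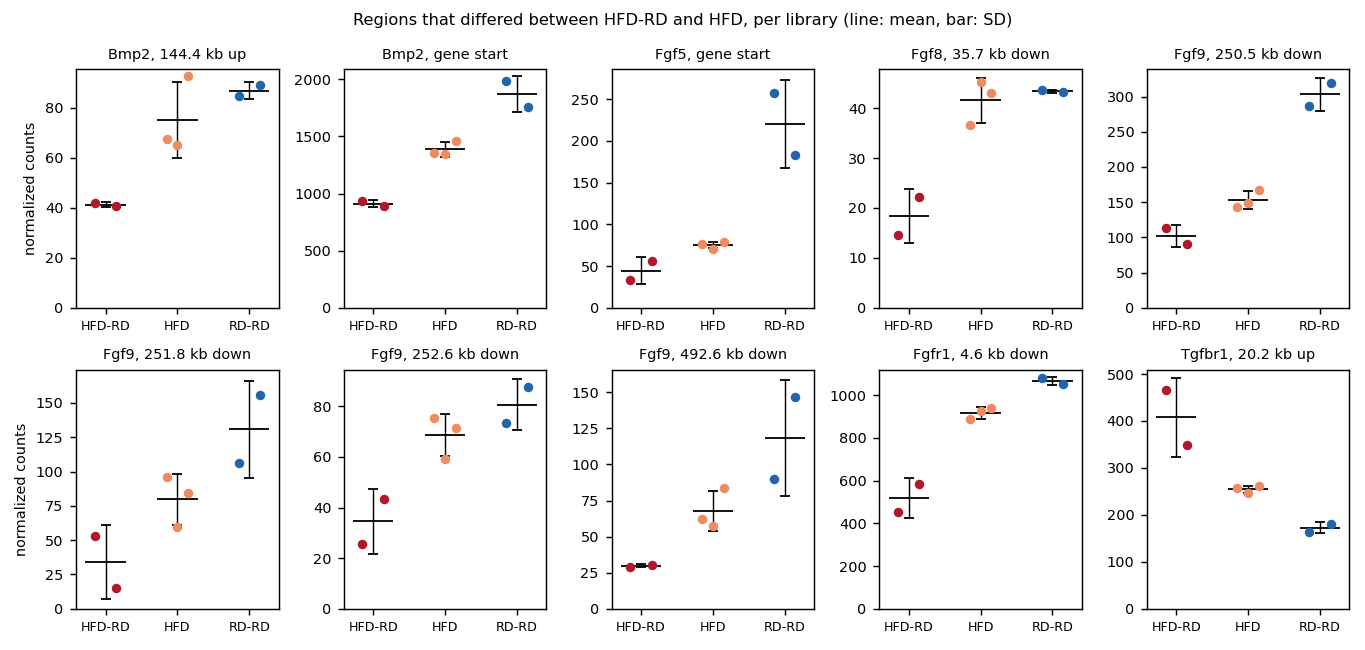
Normalized counts per library (vertical axes, each from 0) at the 10 regions that differed between HFD-RD and HFD, with HFD-RD left, HFD in the middle and RD-RD right (points: libraries, lines: means, bars: SD). At the first 9 regions both HFD-RD libraries lie below all HFD libraries, and at the Tgfbr1 region both lie above them.

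The 5 regions over gene starts (Bmp2, Egfr, Fgf5, Fgf9 and Fzd8) were all lower in HFD-RD and in HFD than in RD-RD, and those of Bmp2 and Fgf5 also lower in HFD-RD than in HFD. This direction was common at gene starts. Of all 309 deposited regions over a gene start, 281 (90.9%) were lower in HFD-RD against RD-RD, 236 (76.4%) in HFD against RD-RD and 114 (36.9%) in HFD-RD against HFD. In HFD-RD against HFD, the Egfr start had a log2 change of -0.49 ± 0.20 (SE, adjusted p = 0.102), the Fgf9 start -0.27 ± 0.18 (SE, adjusted p = 0.281) and the Fzd8 region 0.22 ± 0.31 (SE, adjusted p = 0.619), none of which passed.

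**Figure D4:**
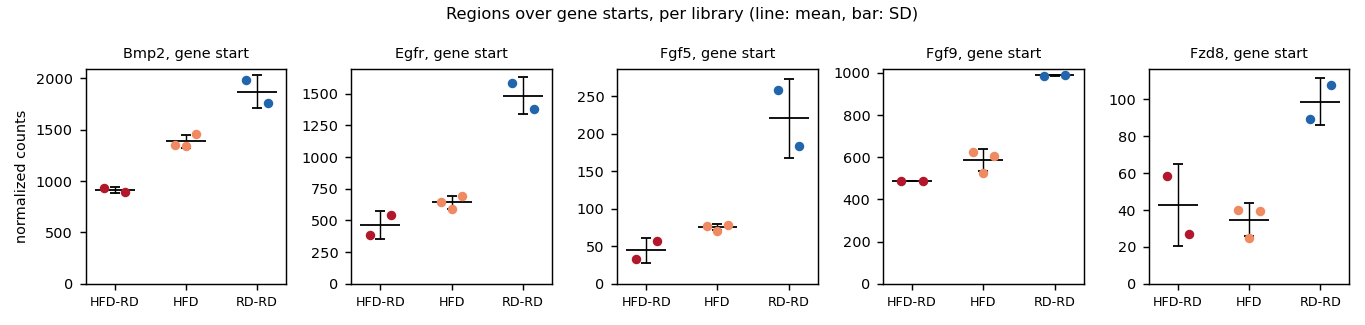
Normalized counts per library (vertical axes, each from 0) at the 5 regions over gene starts, with HFD-RD left, HFD in the middle and RD-RD right (points: libraries, lines: means, bars: SD). Both RD-RD libraries lie above every other library at all 5, and HFD-RD lies below HFD at Bmp2, Egfr, Fgf5 and Fgf9 but not at Fzd8.

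Away from the starts, the position of the 70 regions was close to that of the deposited regions as a whole. The median distance to the gene start was 31.7 kb, against 28.0 kb over all deposited regions, and the median width was 786.5 bp against 730.0 bp. Within 10 kb but not over the start lay 13 of the 70, at 10 to 100 kb 40, and beyond 100 kb 12. Of the 12 most distant regions 4 were higher and 8 lower in HFD-RD against RD-RD, where 54.5% of all deposited regions at that distance were higher and 41.4% lower. 4 of these 8 lower regions were those of Fgf9. Since distant regions are assigned by position alone, the RefSeq gene table was used to look for other genes nearby. The assigned gene body was the nearest coding gene for 53 of the 70 regions. Another coding gene was nearer for 17, of which 9 lay inside it. Those inside another gene were the regions of Fgf1, Hgfac, Pdgfa and Tgfb3, 1 of Bmp10, 2 of Tgfbr1 and both of Wnt11. The others nearer to another gene were those of Bmp6, Fgf2 and Gdf15, 1 of Bmp10, the upstream ones of Fgfr1 and 1 of Igf2r. Which gene these 17 regions act on cannot be read from their position.

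Genes of the same pathways outside the name rule were counted from lists of further pathway members. Over all deposited regions, 64.8% were higher and 32.4% lower in HFD-RD against RD-RD. These shares were 59.2% and 29% in HFD against RD-RD, and 10.2% and 12.8% in HFD-RD against HFD. No list was tested against them. Of 14 other Hedgehog genes 5 had deposited regions, and 7 of these 8 regions were lower and 1 did not pass in HFD-RD against RD-RD. Hhip, a membrane protein that binds and removes Hedgehog ligands, had 4 of them, so the 8 regions are not independent cases. The regions of Cdon and Gas1 lay over gene starts, as did a region of Hhip. Of all deposited regions over a gene start, 90.9% were called lower for HFD-RD when set against RD-RD. The Hhip regions had log2 changes from -2.09 to -1.51, the 2 largest on that list being -2.09 ± 0.21 (SE, adjusted p = 4.32e-05) and -1.87 ± 0.20 (SE, adjusted p = 6.19e-05). In HFD, the Hhip region 105.2 kb upstream had a log2 change of -1.27 ± 0.19 (SE, adjusted p = 0.000279). In HFD against RD-RD 7 were also lower, and in HFD-RD against HFD 3 were lower and 1 higher. The higher one was inside Smo, the Hedgehog signal transducer, with a log2 change of 1.09 ± 0.23 (SE, adjusted p = 0.0107) in HFD-RD against HFD and -1.53 ± 0.23 (SE, adjusted p = 0.000281) in HFD against RD-RD. Of 28 other Notch genes 5 had regions, and 8 of 9 regions were higher and 1, of Adam10, did not pass in HFD-RD against RD-RD. In HFD against RD-RD 8 were also higher, and 1, of Numb, did not pass. The largest change was upstream of Hey1, a transcription factor that Notch induces, with a log2 change of 2.01 ± 0.28 (SE, adjusted p = 0.000152) in HFD-RD and 2.01 ± 0.25 (SE, adjusted p = 0.000161) in HFD. Next came Numb, an inhibitor of Notch, with a log2 change of 1.52 ± 0.36 (SE, adjusted p = 0.00191) in HFD-RD, and Maml3, a Notch coactivator, with a log2 change of 1.29 ± 0.20 (SE, adjusted p = 0.000336) in HFD.

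The same shares, 64.8% higher and 32.4% lower in HFD-RD against RD-RD, stand beside the remaining lists. For the TGF-beta and BMP pathway, 5 of 41 other genes had regions, and of 7 regions 5 were higher, 1 lower and 1 not passed in HFD-RD against RD-RD. Itgb6, an integrin chain that activates latent TGF-beta, was the lower one with a log2 change of -1.74 ± 0.21 (SE, adjusted p = 8.7e-05) in HFD-RD, while Itgav, its partner chain, had a log2 change of 1.26 ± 0.21 (SE, adjusted p = 0.000302) at 22.0 kb upstream. In HFD against RD-RD the largest changes were those of Tgif1, a repressor of Smad targets, with a log2 change of 1.64 ± 0.20 (SE, adjusted p = 0.000145), and Itgb6 with a log2 change of -1.38 ± 0.19 (SE, adjusted p = 0.000206). For the Wnt pathway, 13 of 50 other genes had 18 regions, 8 higher and 10 lower in HFD-RD against RD-RD. Prickle2, of the planar polarity branch, had a log2 change of -2.43 ± 0.32 (SE, adjusted p = 0.000127) inside the gene, and Ryk, a Wnt co-receptor, -1.69 ± 0.20 (SE, adjusted p = 7.76e-05) over its start. In HFD, Prickle2 had a log2 change of -1.70 ± 0.29 (SE, adjusted p = 0.000501) and Tle3, a corepressor of Wnt target genes, 1.38 ± 0.22 (SE, adjusted p = 0.000358). In HFD-RD against HFD, 2 regions of the Wnt list were higher, 4 lower and 12 not passed. Ryk had a log2 change of -0.97 ± 0.18 (SE, adjusted p = 0.00784) over its start and Lef1, a transcription factor of the Wnt pathway, -0.86 ± 0.24 (SE, adjusted p = 0.0298) at 159.2 kb upstream, while both higher regions belonged to Tcf7l2, another such factor, with 0.74 and 0.64 on the log2 scale. For other genes of receptor tyrosine kinase signalling, 19 of 41 had 41 regions, 24 higher, 15 lower and 2 not passed in HFD-RD against RD-RD. Irs1, an adaptor of the insulin and IGF1 receptors, had the largest change with a log2 change of -2.79 ± 0.28 (SE, adjusted p = 4.21e-05) inside the gene, followed by Kl, the FGF23 co-receptor klotho, with a log2 change of -2.19 ± 0.36 (SE, adjusted p = 0.000326) downstream. In HFD against RD-RD, Sos1, which activates Ras, had a log2 change of 1.83 ± 0.27 (SE, adjusted p = 0.000252) and Irs1 -1.51 ± 0.18 (SE, adjusted p = 0.000128) upstream. In HFD-RD against HFD, 4 regions of this list were higher, 9 lower and 28 not passed. Irs1 had a log2 change of -1.55 ± 0.25 (SE, adjusted p = 0.00706) inside the gene and Gab2, an adaptor protein, 1.17 ± 0.25 (SE, adjusted p = 0.0113) upstream. The EGF receptor ligands were chosen from the list after their values were seen. Areg (3 regions), Btc (1 region) and Tgfa (2 regions) were lower in HFD-RD at all of their regions. Their log2 changes ran from -1.93 at the Tgfa start to -1.001 at the Btc start. The 2 regions of Nrg4, a ligand of related receptors, were higher by 1.01 and 1.53. Lower calls at the starts of Tgfa, Btc and Ryk share the common direction of gene starts. Of all deposited regions over a gene start, 90.9% were called lower for HFD-RD when set against RD-RD, and 36.9% when set against HFD.

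Markers of other cells that sorted fat macrophages could hold were counted in the same tables. In HFD-RD against RD-RD, where 64.8% of all deposited regions were higher and 32.4% lower, endothelial markers had 7 regions (4 of 8 genes), 4 higher and 3 lower. Mural cell markers had 3 regions (Cspg4 and Pdgfrb, 2 of 5 genes), all higher, with the 2 of Cspg4 at 1.91 and 1.66 on the log2 scale in HFD-RD and 2.37 and 1.99 in HFD. The fibroblast and adipose progenitor list had 1 region, of Dpp4, which was lower, and adipocyte, NK cell, mast cell and eosinophil markers had none. T cell markers had 1 region higher and 2 lower, B cell markers 1 and 3, dendritic cell markers 1 and 2, and neutrophil markers 0 and 1. The Pdgfrb region is itself on the mural cell list, so it cannot be compared with that list. The part of other cells in the results above, including the PDGF regions, was not tested.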

How the data were processed

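ATAC-seq was carried out on sorted adipose tissue macrophage nuclei in 7 libraries. The authors deposited 7 tables of regions with, per library, a signal of normalized read coverage (reads in a region divided by 1 size factor per library), which gave back whole reads in every library within a tolerance of 1e-06. The deposited log2 fold changes, score (a Wald statistic) and p-values of the authors were used only to learn what each table compares. Every deposited adjusted p is at most 0.05, and every deposited absolute log2 fold change is at least 1. Per the submitters' processing notes, the tools were MACS2 2.0.10, Picard, DESeq2 and deepTools and the build GRCm38. What each tool did, the aligner and any read filter are not given in sources used here.

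Regions of all tables were joined (5898), and each was kept once. Log2(normalized count + 1) was fitted in limma 3.58.1 (R 4.3.3), with all 7 libraries in 1 model (4 residual degrees of freedom), no covariate, a minimum mean of 10 normalized counts that removed 0 regions, and Benjamini-Hochberg adjustment over all regions. Adding 1 before the log understates the change of low regions. The fit was tested on simulated data. Groups follow the titles. Depth limits precision, since the lowest of the 70 regions held 8 reads in 1 library. Alternatives were the pseudocount, the minimum, the scaling, robust variances, a threshold on the fold, the replicate number as a block and each library left out.

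The gene families, pathway lists and marker lists were chosen with earlier results of these data known. Values per library are given for the largest increase and decrease of each family and comparison, gene starts, regions called between HFD-RD and HFD, and genes with 3 or more regions or with calls in both directions, and for further regions chosen after their values were seen. Other pathway genes are named for the 2 largest changes that passed per list and comparison. The RefSeq gene table and promoter sequences (GRCm38.p6) matched all 70 regions by symbol, and 29 of the 40 genes had a promoter entry.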

Additional observations from a re-analysis of the deposited data

How the results depend on the processing

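No direction of a called region reversed under any alternative run. Of the calls, 59 of 69 in HFD-RD against RD-RD, 51 of 64 in HFD against RD-RD and 0 of 10 in HFD-RD against HFD held under every alternative that gave a value, the threshold on the fold apart. Leaving out single libraries gave HFD-RD against RD-RD 36 to 42 higher and 25 to 27 lower regions, HFD against RD-RD 34 to 41 higher and 21 to 24 lower, and HFD-RD against HFD 0 to 2 higher and 1 to 9 lower. Shares called over all deposited regions also changed between these fits, so these ranges were not particular to the 70 regions. With an absolute log2 change of at least 1, HFD-RD against RD-RD had 30 higher (53.6% of all deposited regions) and 24 lower (29.4% of all). HFD against RD-RD had 28 (36.9% of all) and 12 (12% of all), and HFD-RD against HFD 0 (3.24% of all) and 4 (3.54% of all). All deposited regions had already passed a limit of this size in the authors' values, so these counts partly reflect that selection. Equal totals per library gave 0 higher (6.12% of all deposited regions) and 23 lower (26.9% of all) in HFD-RD against HFD. This scaling shifted the median of all regions by -0.19 in HFD-RD against RD-RD, by 0.018 in HFD against RD-RD and by -0.21 in HFD-RD against HFD. The region with the most reads held 14.3% and 9.95% of them in HFD-RD, 5.49%, 7.25% and 5.51% in HFD, and 15.0% and 14.6% in RD-RD. Both pseudocounts, no minimum and robust variances ended no call, nor did a minimum mean of 50 among the regions it kept. The cause of these changes was not tested.

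The replicate numbers did not pair the libraries: deviations of same-numbered libraries from their group means correlated between -0.072 and 0.063. With the replicate block, HFD-RD against RD-RD had 42 higher (64.5% of all deposited regions) and 27 lower regions (32.2% of all). HFD against RD-RD had 37 (55.6% of all) and 22 (27.1% of all), and HFD-RD against HFD 0 (3.05% of all) and 1 (4.09% of all). Only HFD has a replicate 3, so the block in effect takes that library out. The median log2 change over all regions in HFD-RD against HFD was 0.014 both with the block and without HFD replicate 3. The block therefore does not show the effect of pairing alone. Planned tests on reads (edgeR, DESeq2 and TMM scaling) were not run here. Counts of reads set a limit at low regions, and single calls near the threshold rest on 2 libraries per group in HFD-RD and RD-RD.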
